A study of Mus musculus with 51 samples.

Results

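The genes described here are 6 that mark inhibitory interneurons, namely Gad1, Gad2, Slc32a1, Pvalb, Sst and Reln, followed through the CA1, CA3 and dentate gyrus (DG) layers of the mouse hippocampus. They were chosen by symbol in the annotation of the array, which gave 8 probe sets for the 6 genes, of 22626 probe sets tested and 11962 genes with a named probe set. No filter on signal was set, so all 8 entered every test. Gad1 was read by probe sets 1416561_at and 1416562_at, Slc32a1 by 1422756_at and 1456457_at, Gad2 by 1421978_at, Pvalb by 1417653_at, Sst by 1417954_at and Reln by 1449465_at. Where a gene has a pair of probe sets, the brighter (1416561_at for Gad1 and 1422756_at for Slc32a1) is the one meant unless the other is named.

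The samples came from 17 mice, which the labels give as female and aged 4.5 months, and were read on 51 HT-MG-430A arrays of Affymetrix. There were 6 rTg4510 mice, 5 tTA mice and 6 double negative (DN) mice, with 1 array from each subfield of each mouse, so that every array is 1 mouse and 1 layer. The rTg4510 mice carry the CaMKIIα promoter-driven tetracycline transactivator (tTA) together with a human tau transgene bearing the P301L mutation under a tetracycline-responsive element. The tTA mice carry the transactivator alone, and DN mice are littermates with neither transgene, and all groups come from the cross of a tTA line with an FVB/N tau line. The CaMKIIα promoter is active in excitatory forebrain neurons, so the mutant tau of this model is made in the pyramidal and granule cells that surround the interneurons, and not by a promoter of interneurons. Set against tTA mice, rTg4510 mice carry the tau transgene in addition to the transactivator, and that pair is compared first.

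Gad1 and Gad2 encode the glutamic acid decarboxylases that make the transmitter GABA from glutamate, and Slc32a1 encodes the vesicular transporter that loads GABA into synaptic vesicles. These genes are used by nearly all inhibitory neurons. Pvalb encodes the calcium buffer parvalbumin, which marks fast-spiking basket and axo-axonic cells whose somata lie in or beside the principal cell layers. Sst encodes the neuropeptide somatostatin of dendrite-targeting interneurons, many of which sit in stratum oriens and in the hilus of the DG. Reln encodes reelin, a secreted glycoprotein that in the adult hippocampus is made by interneurons and by the remaining Cajal-Retzius cells, and which signals to other neurons through lipoprotein receptors and the adaptor Dab1. In a captured principal cell layer such cells are few among pyramidal or granule cells, and in such bulk material fewer cells of a type and less RNA per cell cannot be told apart.

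The promoter windows of the members are shown because the 6 genes did not share 1 order of signal over the subfields. They come from RefSeq on GRCm38.p6, where all 6 genes were matched and Pvalb has 2 windows, and each window was searched from 250 bases before to 50 bases after the start of the gene. The 250 bases before the start are printed 5′ to 3′ on the strand of the gene for 3 genes whose signal was higher in the DG than in CA3 (Gad1, Gad2 and Reln), for Pvalb (its first window), which was highest in CA1, and for Sst. Capitals mark a motif that was found.
Gad1 (chr2:70561879-70562128, plus strand): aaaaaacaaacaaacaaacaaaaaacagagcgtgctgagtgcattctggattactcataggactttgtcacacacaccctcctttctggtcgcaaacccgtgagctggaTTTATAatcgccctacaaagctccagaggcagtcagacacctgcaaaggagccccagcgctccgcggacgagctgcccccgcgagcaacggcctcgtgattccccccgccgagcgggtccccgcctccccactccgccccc
Gad2 (chr2:22622077-22622326, plus strand): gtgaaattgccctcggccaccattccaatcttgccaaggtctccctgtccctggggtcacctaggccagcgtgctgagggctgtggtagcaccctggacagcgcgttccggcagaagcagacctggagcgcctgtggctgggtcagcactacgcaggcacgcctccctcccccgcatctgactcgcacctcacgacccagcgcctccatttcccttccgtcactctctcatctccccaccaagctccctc
Reln (chr5:22344706-22344955, minus strand): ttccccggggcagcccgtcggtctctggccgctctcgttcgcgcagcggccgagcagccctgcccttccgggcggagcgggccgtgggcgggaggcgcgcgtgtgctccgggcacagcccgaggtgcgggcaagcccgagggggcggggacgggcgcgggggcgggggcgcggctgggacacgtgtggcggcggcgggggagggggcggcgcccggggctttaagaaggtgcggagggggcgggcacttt
Pvalb (chr15:78206401-78206650, minus strand): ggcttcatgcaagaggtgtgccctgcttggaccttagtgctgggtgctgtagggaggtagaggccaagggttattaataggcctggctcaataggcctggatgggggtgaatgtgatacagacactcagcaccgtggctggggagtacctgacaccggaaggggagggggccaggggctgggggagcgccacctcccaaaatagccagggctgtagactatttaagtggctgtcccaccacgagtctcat
Sst (chr16:23890845-23891094, minus strand): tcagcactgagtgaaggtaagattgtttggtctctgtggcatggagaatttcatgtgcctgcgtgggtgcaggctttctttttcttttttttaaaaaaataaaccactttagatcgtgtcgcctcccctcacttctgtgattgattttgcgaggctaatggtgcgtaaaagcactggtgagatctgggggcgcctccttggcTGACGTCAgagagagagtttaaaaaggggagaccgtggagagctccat
The motifs named here were searched on both strands. The cyclic AMP response element TGACGTCA, the site through which CREB-type factors act and a textbook feature of the somatostatin gene, was in 1 of the 7 member windows, that of Sst, where it begins at -48 from the start, and in 1.79% of 32851 windows of all genes. The TATA box TATAAA was in 1 member window, that of Gad1, on the reverse strand and beginning at -141, and in 13.6% of all windows. The homeodomain core TAATTA, which Dlx and Lhx factors can bind, was in 0 of the 7 member windows and in 5.29% of all windows. The window of Reln held 80.7% G and C and that of Sst 50.3%, with the other windows between 58.3% and 67.7% and a median of 52.7% over all windows. A match of letters is a description and not a site shown to be used.

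Signals are log2 values from RMA, which corrects background, normalizes between arrays and summarizes each probe set. Array medians lay between 2.906 and 3.117, and the member probe sets were above the median of their own array on all 17 arrays of each subfield, except Slc32a1 1456457_at in the DG and Reln in CA3, each on 16 of 17. The mean of 4 granule cell genes was 1.91 to 5.48 in CA1, 1.81 to 4.16 in CA3 and 6.58 to 8.34 in the DG. Of 5 pyramidal cell genes, Neurod6 was above its DG level by 3.20 in CA1 and by 3.46 in CA3, and Bok by 2.66 in CA3 (each called), whereas Bcl6 and Crym, higher in CA1 than in CA3, were called lower in CA3 than in the DG, so that the mean of the 5 was lower in CA3 (4.19 to 5.34) than in the DG (4.44 to 6.27). On Prnp or Xist, several arrays went against their labels. Prnp was read as a check of the genotype label, and whether it follows the tau transgene was not tested apart from these arrays. The mean of the 2 Prnp probe sets was 9.94 to 10.65 on 17 of the 18 rTg4510 arrays and 8.03 to 9.41 on 29 of the tTA and DN arrays, but 8.21 on the DG array of rTg4510 mouse 3, and 9.97 to 10.66 on the 3 arrays of DN mouse 4 and the DG array of DN mouse 5. Xist, which is expressed in females, was 2.49 to 4.06 on the CA1 and CA3 arrays of DN mouse 5 and the DG array of rTg4510 mouse 3, against 7.85 to 10.26 on the other 48 arrays. The DG array of DN mouse 5 had 9.91 for Xist and 10.26 for Prnp, and the DG array of rTg4510 mouse 3 had 2.50 and 8.21, so that on both genes each of this pair lay nearer to the CA1 and CA3 arrays of the other animal. Whether these DG arrays were exchanged was not tested, and it touches every DG value and within-mouse difference of both mice. All arrays were kept under their labels, and results are also given without the 5 arrays that Prnp sets apart, which include this pair, and without the 7 that Prnp or Xist sets apart. The 3′ minus 5′ difference of Gapdh, a sign of RNA integrity and amplification, was 2.32 at the median of the CA1 arrays, 2.40 for CA3 and 2.67 for the DG, so it was larger in the DG, and its part in the subfield differences was not tested.

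The GABA-synthesizing enzymes were highest in the DG granular layer and lowest in CA3. Gad1 had 6.11, 7.36 and 7.90 (lowest, median and highest of 17 arrays) on CA1 arrays, 5.30, 6.22 and 7.36 on CA3 arrays and 6.38, 7.83 and 8.24 on DG arrays. The subfields overlapped over all mice, but within mice Gad1 was lower in CA3 than in the DG in 17 of 17, lower in CA1 than in the DG in 14 of 17, and higher in CA1 than in CA3 in 14 of 17. Compared within mice by limma with the mouse as a block, CA3 was lower than the DG by 1.53 (SE 0.18, a 2.89-fold difference, adjusted p = 4.7e-08) and CA1 was higher than CA3 by 0.88 (SE 0.18, adjusted p = 0.00126). CA1 minus DG was -0.65 (SE 0.18, adjusted p = 0.0119), a call that was lost with array weights (-0.44, adjusted p = 0.0682) and without the 5 arrays (-0.59, adjusted p = 0.0501). The other probe set of Gad1, 1416562_at, gave -1.63 in CA3 minus DG (SE 0.35, adjusted p = 0.000931), 0.73 in CA1 minus CA3 (95% interval 0.02 to 1.43, adjusted p = 0.296) and -0.90 in CA1 minus DG (95% interval -1.61 to -0.19, adjusted p = 0.0995, and -1.07 with adjusted p = 0.0425 without DN mouse 2). Both probe sets of Gad1 therefore had the same order of subfields, with only the difference of CA3 from the DG called by both.

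Gad2 followed Gad1 in its order of subfields. It had 5.50, 7.21 and 8.34 on CA1 arrays, 4.57, 6.36 and 7.91 on CA3 arrays and 6.57, 7.78 and 8.52 on DG arrays (lowest, median and highest of 17 arrays). It was lower in CA3 than in the DG in all 17 mice, by 1.37 (SE 0.26, a 2.58-fold difference, adjusted p = 0.000162). Its CA1 signal lay between, 0.70 above CA3 (95% interval 0.18 to 1.22, adjusted p = 0.125) and 0.66 below the DG (CA1 minus DG -0.66, 95% interval -1.18 to -0.15, adjusted p = 0.0967), and neither step passed the threshold. Array weights gave CA1 minus CA3 as 0.76 (adjusted p = 0.0343), and CA1 minus DG was -0.78 (adjusted p = 0.033) without tTA mouse 4.

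Slc32a1, the vesicular GABA transporter, differed less between the layers. Its signal was 5.91, 7.95 and 8.61 on CA1 arrays, 6.36, 7.37 and 8.24 on CA3 arrays and 7.19, 7.70 and 8.32 on DG arrays (lowest, median and highest). The 3 ranges overlapped almost wholly. No subfield comparison was called for either probe set. For 1422756_at CA1 minus CA3 was 0.50 (95% interval 0.12 to 0.88, adjusted p = 0.136), CA1 minus DG was 0.05 (-0.32 to 0.43) and CA3 minus DG was -0.45 (-0.82 to -0.07, adjusted p = 0.112). Without rTg4510 mouse 6, whose CA1 array had the lowest signal of its subfield at 5.91, CA1 minus CA3 was 0.64 and passed (adjusted p = 0.0125). The dimmer probe set 1456457_at spread more, from 3.60 to 9.16 in CA1 and from 3.06 to 7.75 in the DG, and its differences lay between -0.37 and 0.55 with standard errors of 0.42.

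Pvalb had another order than the decarboxylases, with its highest mean in CA1 and its lowest in the DG. Its signal was 7.47, 8.57 and 9.80 on CA1 arrays, 3.23, 7.80 and 8.45 on CA3 arrays and 5.06, 6.82 and 8.03 on DG arrays (lowest, median and highest). Every mouse had more Pvalb signal in CA1 than in the DG, and 14 of 17 had more in CA1 than in CA3. CA1 exceeded the DG by 1.78 (SE 0.30, a 3.44-fold difference, adjusted p = 5.4e-05) and CA3 by 1.18 (SE 0.30, a 2.26-fold difference, adjusted p = 0.0146), and both calls held in each of 27 alternative fits. CA3 minus DG was 0.61 (95% interval -0.01 to 1.22, adjusted p = 0.198), higher in CA3 in 12 of 17 mice. The CA3 array of DN mouse 4 alone stood at 3.23, the lowest Pvalb signal of all, and this array is one of those that went against its label. Without DN mouse 4, CA3 minus DG was 0.86 (adjusted p = 0.0154), without the 5 arrays 0.87 (adjusted p = 0.0305) and without the 7 arrays 0.87 (adjusted p = 0.0361).

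Sst, the somatostatin gene, did not differ between subfields beyond its spread. It had 4.88, 6.92 and 8.37 on CA1 arrays, 5.31, 6.75 and 7.99 on CA3 arrays and 3.91, 6.47 and 7.19 on DG arrays (lowest, median and highest). The differences were 0.24 for CA1 minus CA3 (95% interval -0.33 to 0.80), 0.44 for CA1 minus DG (-0.13 to 1.01) and 0.21 for CA3 minus DG (-0.36 to 0.77), with adjusted p between 0.395 and 0.764. These intervals leave room for differences of up to about 1 on the log2 scale between CA1 and the DG.

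Reln, like the decarboxylases, was highest in the DG layer. It had 3.69, 5.37 and 7.20 on CA1 arrays, 2.44, 5.09 and 7.09 on CA3 arrays and 4.12, 6.80 and 7.47 on DG arrays (lowest, median and highest). CA3 was lower than the DG by 1.24 (SE 0.34, a 2.36-fold difference, adjusted p = 0.00928), in 13 of 17 mice, and this call held in each of 27 alternative fits. CA1 minus DG was -1.04 (SE 0.34, a 2.06-fold difference, adjusted p = 0.039), lower in CA1 in 15 of 17 mice, but the call was near the threshold. It was lost when rTg4510 mouse 1 or 6, any of the 5 tTA mice, or DN mouse 2 or 4 was left out (-0.90 to -1.05, adjusted p from 0.0555 to 0.0969), with array weights (-0.71, adjusted p = 0.149) and without the DG array of rTg4510 mouse 5 (-1.03, adjusted p = 0.0533), while the difference kept its direction. CA1 minus CA3 was 0.20 (95% interval -0.48 to 0.88, adjusted p = 0.847).

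**Figure D1:**
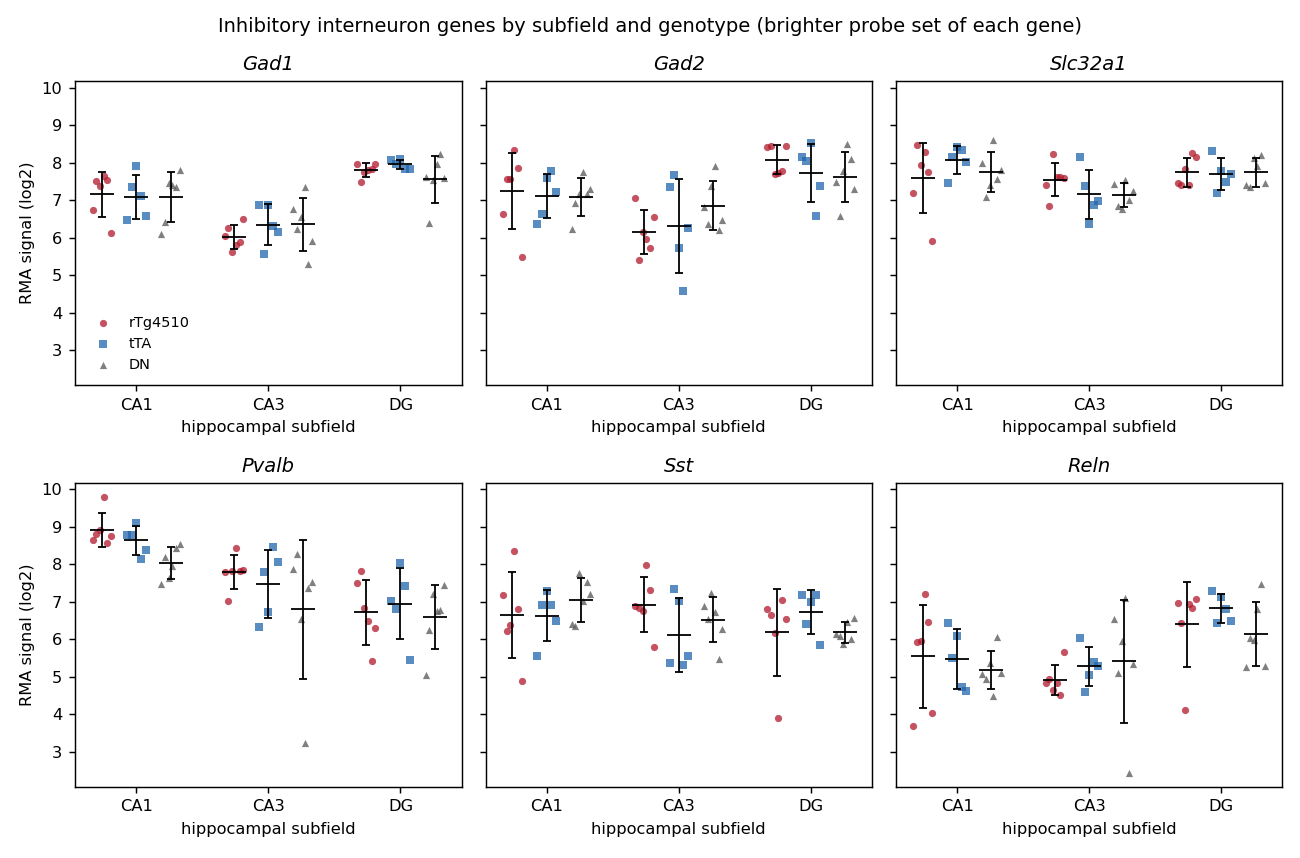
Signal (log2) of each member gene by its brighter probe set, with subfields along the horizontal axis. Points are single arrays of rTg4510 (circles), tTA (squares) and DN mice (triangles), and bars give the mean and SD (n = 6, 5 and 6). Gad1, Gad2 and Reln are highest in the DG and Pvalb is highest in CA1, while the genotypes overlap everywhere but for rTg4510 and DN mice at Pvalb in CA1.

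Of the 8 member probe sets, 2 were called in CA1 minus CA3, 3 in CA1 minus DG and 4 in CA3 minus DG, where 4.68%, 10.9% and 13.9% of all 22626 probe sets were called. In CA1 minus CA3 all 8 probe sets had higher means in CA1, with a median difference of 0.63, and the 2 calls were both higher in CA1 (Gad1 and Pvalb). In CA1 minus DG 1 call was higher in CA1 (Pvalb) and 2 were lower (Gad1 and Reln), with a median of -0.30. In CA3 minus DG the 4 calls were all lower in CA3 (both Gad1 probe sets, Gad2 and Reln), with a median of -0.84. Over all genes, each by its brightest probe set, the medians were -0.03, 0.02 and 0.05. The member calls numbered 2, 2 and 5 without the 5 arrays and 2, 3 and 5 without the 7 arrays, in the same order of comparisons. The shares of all probe sets called in those fits are not given here.

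**Figure D2:**
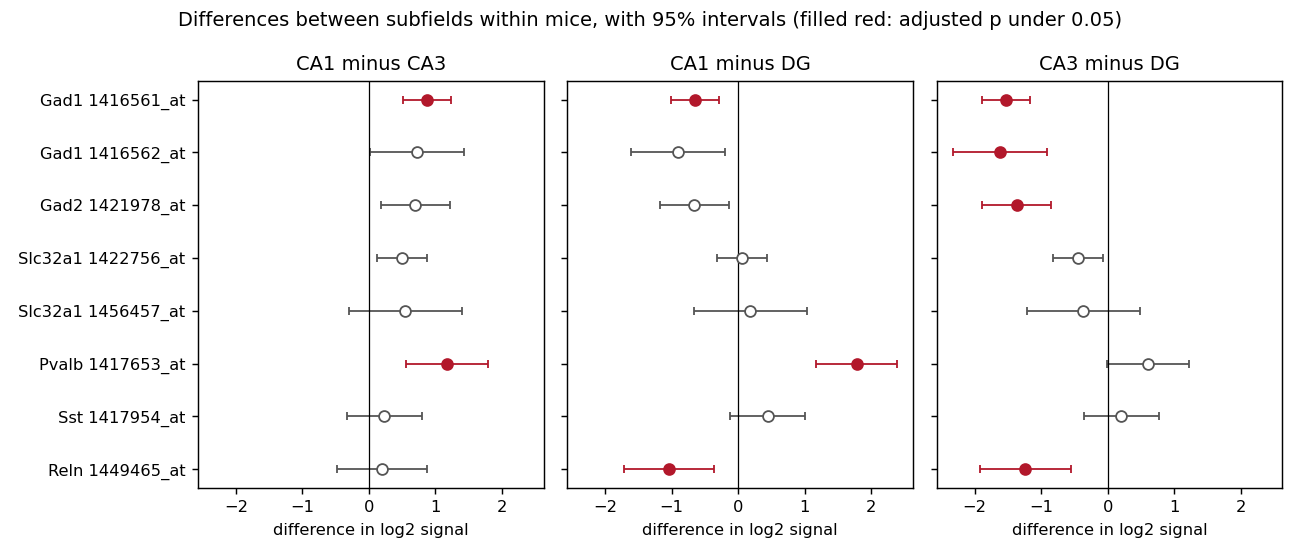
Differences in log2 signal between subfields for the 8 member probe sets, from a fit with the mouse as a block over 51 arrays. Points are the differences, bars are 95% intervals, and filled red points had an adjusted p under 0.05. Pvalb is displaced to the CA1 side in the comparison of CA1 with the DG, at 1.78, whereas Gad1, Gad2 and Reln lie on the DG side of CA3, from -1.63 to -1.24.

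The subfield differences ran the same way in each genotype for the called members. Gad1 in CA3 minus DG averaged -1.78 ± 0.35 in rTg4510 mice, -1.62 ± 0.50 in tTA mice and -1.20 ± 0.98 in DN mice (SD, n = 6, 5 and 6), and in rTg4510 and in tTA mice the CA3 and DG arrays did not overlap. Gad2 in CA3 minus DG averaged -1.93 ± 0.59 in rTg4510, -1.41 ± 0.98 in tTA and -0.76 ± 0.59 in DN mice. Pvalb in CA1 minus DG averaged 2.19 ± 0.98 in rTg4510, 1.69 ± 0.86 in tTA and 1.45 ± 0.70 in DN mice, and CA1 did not overlap the DG within any genotype. The share of all probe sets without overlap between layers is not given here, so the lack of overlap is only a description. Reln in CA3 minus DG averaged -1.49 ± 1.06 in rTg4510, -1.55 ± 0.38 in tTA and -0.73 ± 2.22 in DN mice, where 3 of 6 DN mice went each way. The lowest DN value, -5.03, came from mouse 5, with 2.44 on its CA3 array and 7.47 on its DG array, the highest Reln signal of the DG and an array whose Prnp went against its label. Without the 5 arrays Reln in CA3 minus DG was -1.35 (adjusted p = 0.00339). Tested as a difference of per-mouse differences between rTg4510 and tTA, the subfield contrasts gave no call for any of the 8 probe sets in CA1 minus CA3, CA1 minus DG or CA3 minus DG (limma, 0% of all probe sets called in each), and no member reached an unadjusted p under 0.05 in any of these 24 tests, by limma or by Fisher's LSD.

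The main question of the study, what mutant tau does to gene expression in each layer, was put to these genes as rTg4510 against tTA mice. None of the 8 probe sets was called in CA1, CA3 or the DG by limma or by Fisher's LSD on log2 signals, and none had an unadjusted p under 0.05 by either. Over all 22626 probe sets, 0% were called in CA1, 0.00442% (1 probe set) in CA3 and 0% in the DG, while 898, 1337 and 1293 had an unadjusted p under 0.05. The member differences ranged from -0.48 to 0.28 in CA1, from -0.37 to 0.81 in CA3 and from -0.53 to 0.93 in the DG, with medians of 0.07, 0.36 and -0.13.

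In the DG Gad1 had 7.49, 7.81 and 7.97 in rTg4510 mice (lowest, median and highest of 6), against 8.07, 7.98, 8.08, 7.84 and 7.84 in tTA mice. The ranges overlapped, and the difference was -0.16 (SE 0.24, 95% interval -0.66 to 0.34). In CA1 Gad1 had 6.12, 7.44 and 7.63 in rTg4510 mice, against 6.46, 7.36, 7.90, 7.12 and 6.58 in tTA mice, with a difference of 0.07 (95% interval -0.69 to 0.82). In CA3 it had 5.60, 5.96 and 6.51 in rTg4510 mice, against 6.86, 5.55, 6.86, 6.30 and 6.14 in tTA mice, with a difference of -0.33 (95% interval -1.005 to 0.345). Gad1 of rTg4510 mice overlapped that of tTA mice in each of the 3 layers.

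Gad2 differed by 0.13 in CA1 (95% interval -0.78 to 1.03), -0.17 in CA3 (-1.20 to 0.86) and 0.35 in the DG (-0.40 to 1.10). Slc32a1 differed by -0.48 in CA1 (-1.30 to 0.33), 0.40 in CA3 (-0.20 to 0.99) and 0.05 in the DG (-0.44 to 0.55). The CA1 value of Slc32a1 includes the lowest CA1 array, 5.91 in rTg4510 mouse 6, beside 7.18 to 8.46 in the other rTg4510 mice and 7.45 to 8.42 in tTA mice. Signals of both genes overlapped between the genotypes in all 3 layers.

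For Pvalb the difference of rTg4510 from tTA was 0.28 in CA1 (95% interval -0.25 to 0.81), 0.32 in CA3 (-1.15 to 1.79) and -0.23 in the DG (-1.29 to 0.83). For Sst it was 0.01 in CA1 (-1.01 to 1.03), 0.81 in CA3 (-0.12 to 1.73, adjusted p = 0.843) and -0.53 in the DG (-1.46 to 0.40). The CA3 signal of Sst was 5.79, 6.86 and 7.99 in rTg4510 mice (lowest, median and highest), against 5.38, 7.34, 7.02, 5.31 and 5.55 in tTA mice. In that layer 3 of the 5 tTA mice lay below all rTg4510 mice and the others lay within their range. For Reln the difference was 0.06 in CA1 (-1.10 to 1.23), -0.37 in CA3 (-1.61 to 0.88) and -0.43 in the DG (-1.49 to 0.62). The intervals of Pvalb, Sst and Reln thus reached beyond 1 on the log2 scale in at least 1 direction in CA3 and the DG. In CA1 those of Sst, Reln and Slc32a1 did so too. The same held for Gad2 in all 3 layers, Gad1 in CA3 (-1.005) and the dimmer probe sets of Gad1 and Slc32a1 in all 3 layers. In these cases a 2-fold difference was not excluded with these mice.

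**Figure D3:**
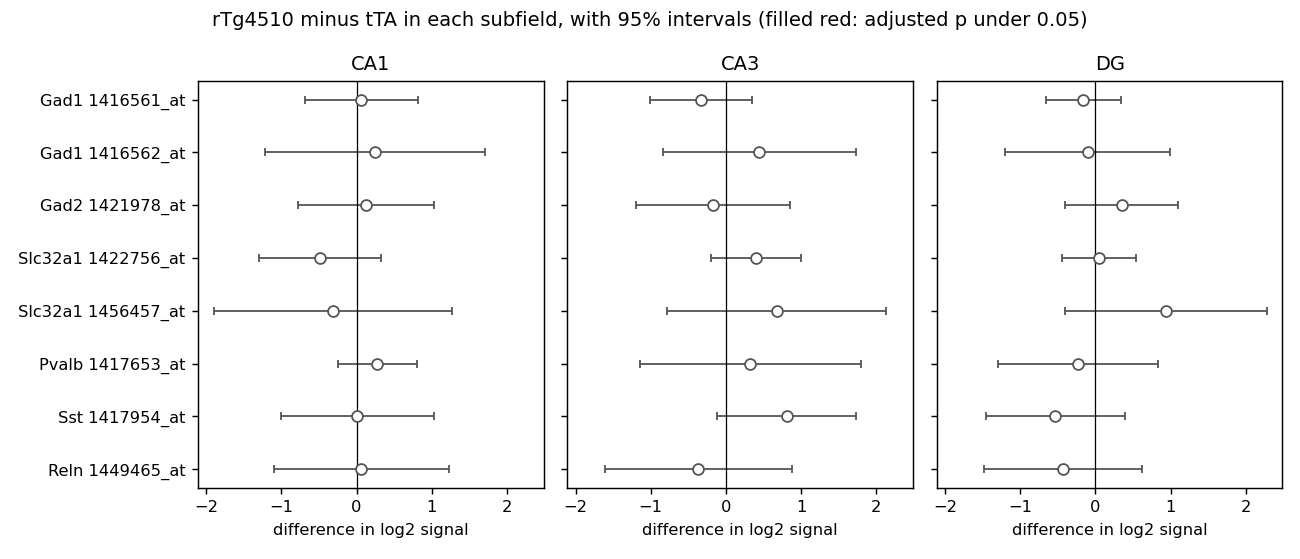
Differences in log2 signal between rTg4510 and tTA mice in CA1, CA3 and the DG for the 8 member probe sets (6 against 5 mice). Points are the differences and bars are 95% intervals. Every interval holds 0, and no adjusted p was under 0.05.

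The remaining genotype contrasts were likewise without a call among the members. In tTA minus DN 0% of all probe sets were called in CA1, in CA3, in the DG and in the mean of each mouse over its subfields. In rTg4510 minus DN 0.00442% (1 probe set) was called in CA1, and 0% in CA3, in the DG and in the mean. In rTg4510 minus tTA 0% was called in the mean. By limma 4 member values had an unadjusted p under 0.05 in these contrasts, against 3.94% to 6.17% of all probe sets per contrast, and Fisher's LSD also called none.

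Of these 4 values 3 belong to Pvalb. In CA1, Pvalb had 8.57, 8.78 and 9.80 in rTg4510 mice (lowest, median and highest of 6), 8.78, 8.79, 9.10, 8.13 and 8.38 in tTA mice, and 7.47, 8.06 and 8.53 in DN mice. All 6 rTg4510 mice lay above all 6 DN mice, whereas the tTA mice overlapped both. This was the only member comparison without overlap between genotypes, of 72 over the 3 contrasts and 3 subfields, while 0.265% of all probe sets had no overlap between rTg4510 and DN mice in CA1. The difference was 0.88 in rTg4510 minus DN (SE 0.24, adjusted p = 0.724 by limma) and 0.60 in tTA minus DN (SE 0.25, adjusted p = 0.998). The mean over subfields gave 0.67 for rTg4510 minus DN (SE 0.26, adjusted p = 0.835 by limma). Both contrasts use the same DN mice, and 2 of the DN arrays in CA1, those of mice 4 and 5, are among the arrays that went against a label. Pvalb was 7.94 and 8.43 on these 2 arrays. The difference of rTg4510 from DN mice was 0.86 without the 5 arrays (adjusted p = 0.8) and 0.96 without the 7 (adjusted p = 0.856).

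The other value was Slc32a1 1456457_at in the DG, with 5.40, 7.53 and 7.75 in rTg4510 mice and 3.06, 5.29 and 7.09 in DN mice (lowest, median and highest of 6). The groups overlapped, and the difference was 1.73 (SE 0.61, adjusted p = 0.967 by limma). The brighter probe set of Slc32a1 gave -0.00 for the same contrast (95% interval -0.47 to 0.47), so the pair of probe sets disagreed. Within a subfield they correlated over the 17 mice at r = 0.42 (CA1), 0.582 (CA3) and 0.256 (DG), given as a description.

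Gad2, Sst, Pvalb and Reln varied more between mice of 1 group than most probe sets did. Gad1 and Slc32a1 were nearer the middle, above 57.3% and 57% of all probe sets. The SD within groups was 0.53 for Gad1 and for Slc32a1, 0.75 for Gad2, 0.80 for Sst, 0.91 for Pvalb and 0.97 for Reln, against a median of 0.47 over all probe sets. The dimmer probe sets of Gad1 and Slc32a1 had SDs of 1.09 and 1.23, above those of 97.5% and 99.2% of all probe sets.

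Whether the members rise and fall together from mouse to mouse was asked within each subfield over its 17 arrays, for the 15 pairs of genes, which makes 45 relations. Of these, 37 correlations were above 0, 13 had a permutation p under 0.05, and 6 remained under 0.05 after Benjamini-Hochberg adjustment, all of them in CA1 or CA3. The share of other pairs of genes that correlate so is not given here. All genes of an array share its amplification and labelling, so these counts are a description and not a trait of the members. In CA1 Gad1 went with Gad2 (r = 0.775, permutation p = 0.00015, adjusted p = 0.00337, rho = 0.755 with permutation p = 0.0007 and adjusted p = 0.0105, and r = 0.618 without the 2 mice farthest from the median of Gad1). Gad2 also went with Slc32a1 (r = 0.731, permutation p = 0.00132, adjusted p = 0.0198, rho = 0.645 with adjusted p = 0.0706, and r = 0.505 without the 2 farthest mice). The CA1 arrays of rTg4510 mouse 6 and rTg4510 mouse 4 were among the ends of these relations, at 5.50 and 8.34 for Gad2.

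Sst joined the decarboxylases in CA1. Its r was 0.681 with Gad1 (permutation p = 0.00215, adjusted p = 0.0242, rho = 0.598 with adjusted p = 0.114) and 0.679 with Gad2 (permutation p = 0.00299, adjusted p = 0.0248, rho = 0.439 with adjusted p = 0.26). Without the 2 farthest mice these were 0.574 and 0.298, so the relation of Sst with Gad2 rests on those mice. In CA3 the strongest relation of all was Gad1 with Reln (r = 0.852, permutation p = 2e-05, adjusted p = 0.0009, rho = 0.843 with adjusted p = 0.0027, and r = 0.772 without the 2 farthest mice). The highest CA3 signals of Gad1 and Reln were those of DN mouse 4 (7.36 and 7.09), and the lowest those of DN mouse 5 (5.30 and 2.44). Both arrays went against a label, and these are the 2 farthest mice. Gad1 and Pvalb ran opposite to each other in CA3 (r = -0.647, permutation p = 0.00331, adjusted p = 0.0248), with r = -0.542 without the 2 farthest mice and rho = -0.358 (adjusted p = 0.37), and the CA3 array of DN mouse 4, with 7.36 for Gad1 and 3.23 for Pvalb, is the extreme point of both.

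In the DG no pair passed by Pearson's r, and the largest was that of Gad1 and Gad2 (r = 0.612, permutation p = 0.00928, adjusted p = 0.0522, and r = 0.377 without the 2 farthest mice). Gad1 and Reln, which went together in CA3, had rho = 0.775 in the DG (permutation p = 0.00047, adjusted p = 0.0105) with r = 0.425 (adjusted p = 0.254), or r = 0.603 without the 2 farthest mice. The lowest Reln array there, rTg4510 mouse 3 at 4.12, had 7.75 for Gad1. With genotype means removed, 8 relations passed, the 6 above together with Gad1 and Slc32a1 in CA1 (r = 0.642, adjusted p = 0.028) and Gad1 and Gad2 in the DG (r = 0.65, adjusted p = 0.021). Apart from the CA3 value above, no relation of Pvalb with Gad1, Gad2 or Slc32a1 passed, with r between -0.539 and 0.358.

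**Figure D4:**
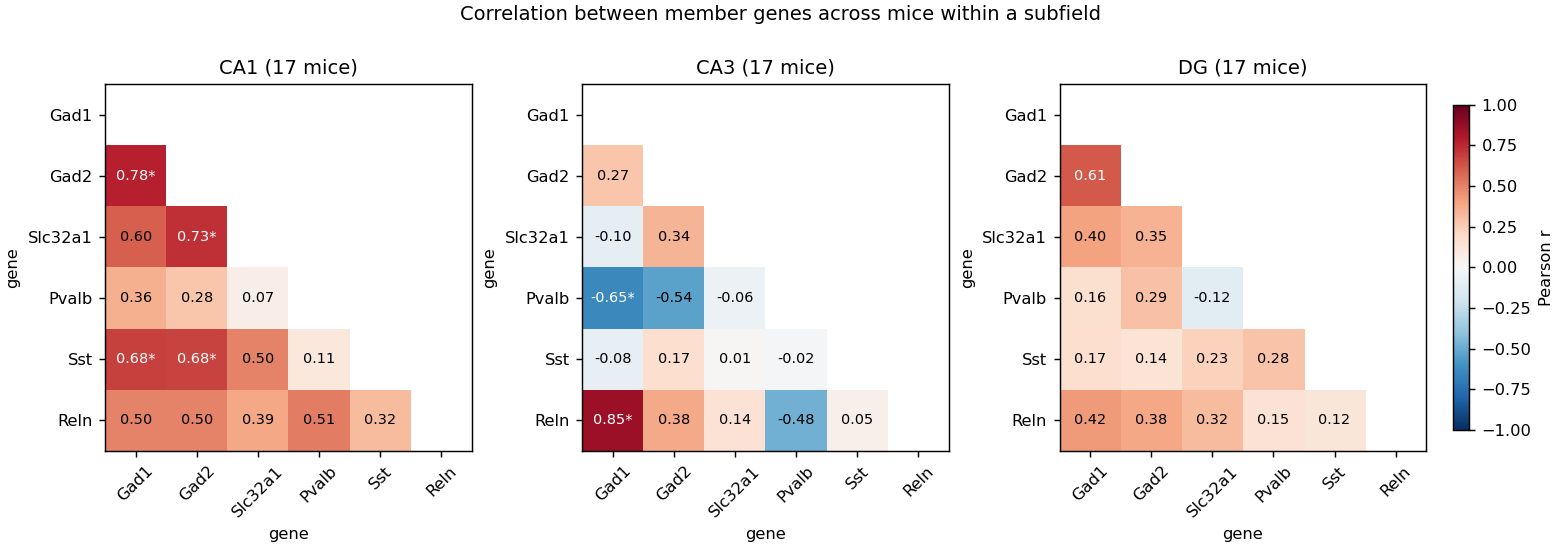
Pearson r between the signals of member genes over 17 mice within CA1, CA3 and the DG, on a scale from -1 (blue) to 1 (red). Asterisks mark relations with an adjusted permutation p under 0.05 over 45 relations, of which CA1 holds 4, CA3 2 and the DG 0.

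After the mean of each genotype and subfield was subtracted, the genes most like the mean of Gad1, Gad2 and Slc32a1 over the 51 arrays included Gpc4 (r = 0.687), Tle1 (0.645), Cadps2 (0.629), Ddx6 (0.589), Bex1 (0.558), Cygb (0.549), Tcf4 (0.549), Spon1 (0.548) and Calhm2 (0.547). Cadps2 encodes a protein of dense-core vesicle release. These are among the 10 highest of 11959 genes ranked, whose 99th percentile was 0.418, all genes of an array share its amplification and labelling and 3 arrays share a mouse, so the values are a description with no test. Reln stood at rank 15 (r = 0.536), Sst at rank 145 (0.409) and Pvalb at rank 9248 (-0.152). Of 18 other interneuron markers, Vip, the vasoactive intestinal peptide gene, ranked highest, at 21 (0.512). Cnr1, the cannabinoid receptor of cholecystokinin basket cells, came next at rank 37 (0.492). The rest lay from rank 578 (Syt2, 0.299) to rank 9474 (Cck, -0.163), with Npy at 3989 (0.064) and Calb2 at 5848 (-0.013).

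The genes most like each of the other members differed. Pvalb was nearest to Ndufa2 (r = 0.744), Snx5 (0.713), Atp5j2 (0.688), Rpl15 (0.687) and Snx22 (0.676), of which Ndufa2 and Atp5j2 are parts of mitochondrial respiratory complexes and Rpl15 is a ribosomal protein. Sst was nearest to Hsd3b6 (0.506), Bcl6 (0.486), Adgrl4 (0.482), Zfp316 (0.474) and Spon1 (0.472). Among the genes nearest to Reln were Nr2f2 (0.631), Tob2 (0.599), Gad1 (0.589) and Farp1 (0.587), where Nr2f2 encodes the transcription factor COUP-TFII, known from interneurons of caudal ganglionic origin.

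Genes that work beside the members were followed as lists, each by its brightest probe set. For GABA uptake and breakdown, 4 of 6 listed genes were measured. Abat, the GABA transaminase, was higher in CA1 than in CA3 by 0.97 (SE 0.19, adjusted p = 0.00115) and higher than in the DG by 0.72 (SE 0.19, adjusted p = 0.0101). The list medians were 0.47, -0.04 and -0.32 in CA1 minus CA3, CA1 minus DG and CA3 minus DG.

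Of 14 transcription factors of interneurons, 11 were measured. Called higher and lower were 2 and 0 in CA1 minus CA3, 1 and 2 in CA1 minus DG, and 1 and 2 in CA3 minus DG, where 2.82% and 2.56%, 5.72% and 5.62%, and 7.51% and 6.97% of all genes were called higher and lower. In CA1 minus CA3, Dlx2, a homeobox gene of the ganglionic eminence, was higher in CA1 (1.11, SE 0.31, adjusted p = 0.0267). Satb1, a chromatin organizer of Sst and Pvalb interneurons that principal cells may also express, was above its DG level both in CA1 (0.60, adjusted p = 0.00243) and in CA3 (0.99, adjusted p = 1.2e-06). Nr2f2 was below its DG level both in CA1 (-0.82, adjusted p = 0.0147) and in CA3 (-0.86, adjusted p = 0.00865). Npas1 was called lower in both comparisons but was above the array median on 2, 2 and 7 of 17 arrays in CA1, CA3 and the DG, and Dlx2 was so on 13, 4 and 8. Where a probe set lies below the median of the array in most arrays of a layer, the size of its difference is uncertain. The list medians were 0.09, 0.12 and -0.25.

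Among 18 measured of 24 other interneuron markers, calls went both ways. Of all genes, 2.82% were called higher and 2.56% lower in CA1 minus CA3. The shares were 5.72% and 5.62% in CA1 minus DG and 7.51% and 6.97% in CA3 minus DG. In CA1 minus CA3, 3 were higher in CA1 (Vip 1.45 and Syt2 0.84, with adjusted p of 0.00585 and 0.00882, and Pthlh, which was above the array median on 1 of 17 CA1 arrays and on 0 elsewhere) and 2 were lower (Lamp5 -1.62, adjusted p = 0.00148, and Nos1 -1.38, adjusted p = 0.00984). Vip was above the array median on 9 of 17 arrays in CA1 and on 2 of 17 in either other layer. Syt2, the synaptotagmin of Pvalb terminals, was also higher in CA1 than in the DG (0.94, SE 0.20, adjusted p = 0.00136), as Pvalb was, although its signal was above the array median on 8 of 17 CA1 arrays and on 1 of 17 in CA3 and in the DG. In CA3 minus DG, 2 were higher in CA3 and 5 lower, with Cck, a neuropeptide that pyramidal cells also express, at 1.31 (adjusted p = 3.7e-10), Npy, the neuropeptide Y gene, at -1.58 (adjusted p = 0.000134) and Calb2, calretinin, which mossy cells of the hilus also express, at -1.69 (adjusted p = 0.00189). In CA1 minus DG, 4 were higher and 2 lower, with Npy at -1.02 (adjusted p = 0.0175) and Calb2 at -2.22 (adjusted p = 7.7e-05). Calb2 was above the array median on 0, 4 and 12 of 17 arrays in CA1, CA3 and the DG. Some of these genes mark principal cells too, and the list medians were 0.19, -0.14 and -0.26.

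On the receiving side, 9 of 16 genes of GABA receptors and the inhibitory synapse were measured. Gabrd, the delta subunit of extrasynaptic receptors of granule cells, was below its DG level both in CA1 (-1.74, adjusted p = 0.00178) and in CA3 (-2.30, adjusted p = 3.7e-05). All 5 somatostatin receptors were measured, and Sstr2 was lower in CA3 than in the DG by 2.31 (SE 0.28, adjusted p = 1.1e-07) and lower in CA1 than in the DG by 1.25 (CA1 minus DG -1.25, adjusted p = 0.00194). Sstr4 was higher in CA1 than in CA3 (1.85, adjusted p = 0.0062) and than in the DG (1.37, adjusted p = 0.0334), whereas Sst itself was not called. Sstr2 was above the array median on 13, 4 and 17 of 17 arrays and Sstr4 on 15, 6 and 10 in CA1, CA3 and the DG. In the reelin pathway, with 5 of 6 genes measured, Dab1, the adaptor that reelin signalling phosphorylates, was lower in CA3 than in the DG by 1.41 (SE 0.16, adjusted p = 1.7e-08), as Reln was, and higher in CA1 than in CA3 by 1.001 (SE 0.16, adjusted p = 3.7e-05). In CA1 minus CA3, CA1 minus DG and CA3 minus DG, that list had medians of 0.14, 0.08 and 0.01. In the same order the GABA receptor list had 0.33, 0.18 and -0.11, and the somatostatin receptors -0.002, -0.038 and -0.036. All probe sets of a gene were averaged for these medians. None of the 4 measured markers of Cajal-Retzius cells was called in any subfield comparison, and by unadjusted p under 0.05 there was 1 in CA1 minus CA3, 0 in CA1 minus DG and 1 in CA3 minus DG. Of these, Lhx1 and Lhx5 were above the array median on 0 of 17 arrays in each layer, Ebf3 on 0 to 2 and Trp73 on 3 to 8, so that the absence of a call says little about them.

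Between rTg4510 and tTA mice, none of the genes of these lists was called in any layer. In CA1 the smallest p of the other interneuron markers were those of Pnoc (-1.32, SE 0.50, adjusted p = 0.999) and Nos1 (1.38, SE 0.66, adjusted p = 0.999), and in CA3 those of Rgs10 (1.10, SE 0.27, adjusted p = 0.744) and Cnr1 (0.95, SE 0.38, adjusted p = 0.819). In the DG, Sstr2 gave -1.05 (SE 0.38, adjusted p = 0.792) and Gabrb2 -1.05 (SE 0.40, adjusted p = 0.804). The list medians of the other interneuron markers were -0.00, -0.07 and 0.04 in CA1, CA3 and the DG, beside -0.02, -0.03 and -0.00 over all genes.

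Markers of cells outside the interneuron class were also compared between layers. Of 10 astrocyte markers, 6 were called lower and 1 higher in CA1 than in the DG (median -0.58), and 4 were called lower in CA3 than in the DG (median -0.45), and of 10 microglia markers 1 and 3 were called lower. Of all genes, 5.72% were called higher and 5.62% lower in CA1 minus DG, and 7.51% and 6.97% in CA3 minus DG. The 1 microglia marker called in CA1 minus DG is near that share. Their mean signals ranged from 5.13 to 7.20 in CA1, 5.09 to 6.64 in CA3 and 5.01 to 7.04 in the DG for astrocytes, and from 3.31 to 6.34, 3.07 to 5.23 and 3.53 to 5.64 for microglia. In the same comparisons Gad1 (by its probe set 1416561_at) and Reln were called lower in CA1 and in CA3, Gad2 was called lower in CA3 only, and Pvalb was called higher in CA1, and the part of these cells in the differences was not tested. Between rTg4510 and tTA mice all 10 oligodendrocyte markers had higher means in rTg4510 in each layer, with medians of 0.91, 0.86 and 0.92 and 0 called by limma (4, 3 and 3 with an unadjusted p under 0.05), where the member medians by the brighter probe sets were 0.07, 0.07 and -0.20. Microglia markers were higher in 10 of 10 in CA1 (median 0.86), 7 of 10 in CA3 (0.33) and 2 of 10 in the DG (-0.43), and vessel markers in 6, 7 and 8 of 8 (medians 0.17, 0.27 and 0.71). Pyramidal cell markers were lower in 4 of 5 in CA1 (median -0.73), in 3 of 5 in CA3 (-0.12) and in 3 of 5 in the DG (-0.12). None of these was called, and their part in the member values was not tested.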

How the data were processed

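RNA of laser-captured layers, stained with cresyl violet, was amplified (Ovation Pico WTA), biotin-labelled (Encore) and hybridised to HT-MG-430A arrays. The authors deposited RMA signals on the log2 scale. The methods describe an anti-log step, but the values run from 0.711 to 12.333, so they were taken as log2. Which arrays were normalized together and the RMA version are not given in the sources used here. Of 22716 probe sets, the 90 controls were dropped. The platform table names 18003 probe sets by 1 symbol, and 332 more, among them those of Prnp, were named from supplementary tables of the study.

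Genotypes were compared in each subfield with limma 3.58.1 in R 4.3.3 (lmFit and eBayes, 3 genotypes in 1 fit), on mouse means and on per-mouse differences. The subfield fit held 51 arrays and blocked on the mouse, because titles tie 3 arrays to each animal. Once group means were removed, arrays of 1 mouse correlated across probe sets at a median of 0.0414 (-0.0656 to 0.202, 51 pairs). P-values were adjusted by Benjamini-Hochberg over 22626 probe sets, with a threshold of 0.05. In the genotype comparisons these p-values measure the spread between mice, whose number (5 or 6 per genotype) limits the precision. In the subfield fit they measure the spread that remains among the 51 arrays once the level of each mouse is removed. Correlations used 100000 resamples, two-sided. The fits and the permutation test were checked on simulated data.

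The members and the lists were chosen with earlier results of these data known, and the genes named in lists are the called ones with the smallest p, or the 2 with the smallest p where none was called. Some genes that this rule names are not reported here. Syt2 in CA1 minus DG, Npas1, the pyramidal cell genes and the genes read beside the likeness ranking were chosen after their values were seen. Other settings were median centring, quantile normalization, array weights, Fisher's LSD (log2 or linear signals), a filter on signals under the 40th percentile, an intensity trend, fits of only 2 genotypes, a random replicate block, no block, 1 probe set per gene and leaving out each mouse. Leaving out the 5 or the 7 arrays, or the DG array of rTg4510 mouse 5, which has the largest Gapdh 3′ minus 5′ difference (3.62), was added after seeing the data. Plots used matplotlib 3.10.9 (Python 3.11.15).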

Additional observations from a re-analysis of the deposited data

Results flagged for a closer look

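Of 72 groups of 5 or 6 arrays (8 probe sets in 9 groups), 7 held 1 array whose gap to its nearest neighbour took up most of the range of the group, and chance flags about 1 in 20 groups. In CA1, Pvalb was 9.80 in rTg4510 mouse 4, above 8.57 to 8.90 in the other rTg4510 mice, and Slc32a1 1456457_at was 3.60 in rTg4510 mouse 6, below 6.03 to 7.37. Gad1 1416562_at was 3.75 in DN mouse 1 in CA1, below 5.93 to 6.47, while its brighter probe set was 6.11 on that array, also the lowest of its group. In CA3, Slc32a1 1456457_at was 8.84 in rTg4510 mouse 3, above 5.25 to 6.23, and Pvalb was 3.23 in DN mouse 4, below 6.53 to 8.27. In the DG, Sst was 3.91 in rTg4510 mouse 4, below 6.17 to 7.05, and Reln was 4.12 in rTg4510 mouse 3, below 6.44 to 7.08. The arrays of DN mouse 4 in CA3 and of rTg4510 mouse 3 in the DG are among those whose Prnp went against the genotype label, and the part of this in their Pvalb and Reln signals was not tested.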

How the results depend on the processing

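No member probe set was called in any of the 447 fits of the 15 genotype comparisons under other settings. The 4 genotype values with an unadjusted p under 0.05 kept their direction throughout, with adjusted p of 0.431 to 0.965 for Pvalb in rTg4510 minus DN in CA1 and 0.49 to 0.998 for Slc32a1 1456457_at in the DG. Between subfields, array weights called 4 member probe sets in CA1 minus CA3 in place of 2 and 1 in CA1 minus DG in place of 3. Without the replicate block for the mouse the counts were 2, 3 and 4 as before, and the block changed no call. With 1 probe set per gene, 3 were called in CA3 minus DG, since Gad1 then counts once. Leaving out 1 mouse gave 2 to 3, 2 to 3 and 4 to 5 calls. The shares of all probe sets called under these settings are not given here. Whether the member counts changed more than those of other probe sets was not tested. Gad1 (1416561_at) in CA1 minus CA3 and CA3 minus DG, Gad2 in CA3 minus DG, Pvalb in CA1 minus CA3 and CA1 minus DG, and Reln in CA3 minus DG were called under every setting run.

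Directions turned only for differences that were not called. Among subfields, Slc32a1 1456457_at in CA1 minus DG was -0.014 without the 7 arrays, and leaving out 1 mouse gave ranges of -0.055 to 0.45 for it, -0.009 to 0.20 for Slc32a1 1422756_at in CA1 minus DG, -0.014 to 0.37 for Reln in CA1 minus CA3 and -0.036 to 0.34 for Sst in CA3 minus DG. In rTg4510 minus tTA in CA1, Gad1 1416562_at was -0.069 and Sst -0.12 with array weights, and Sst was -0.034 with median centring and -0.005 with quantile normalization. In the DG, without the 5 or the 7 arrays Gad1 1416562_at was 0.17 and Reln 0.022, array weights gave Slc32a1 1422756_at as -0.11, and without the DG array of rTg4510 mouse 5 it was -0.049 and Pvalb 0.029. Leaving out 1 mouse gave, in CA1, -0.09 to 0.27 for Gad1 1416561_at, -0.28 to 0.55 for Gad1 1416562_at, -0.34 to 0.36 for Sst, -0.093 to 0.48 for Gad2, -0.27 to 0.43 for Reln and -0.63 to 0.20 for Slc32a1 1456457_at. In CA3 it gave -0.052 to 0.87 for Gad1 1416562_at and -0.61 to 0.17 for Gad2. In the DG it gave -0.33 to 0.17 for Gad1 1416562_at, -0.60 to 0.039 for Pvalb, -0.072 to 0.21 for Slc32a1 1422756_at and -0.57 to 0.022 for Reln. The cause of these turns was not tested.

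Arrays report signal over background and not counts, so the precision rests on the number of mice and on the spread between arrays. With standard errors of 0.22 to 0.75 for genotype differences in single subfields, changes of the members below about 1 on the log2 scale were often not detectable. Larger ones could go uncalled too, as did 1.73 for Slc32a1 1456457_at in rTg4510 minus DN in the DG (adjusted p = 0.967 by limma).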

Other observations

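A few arrays held the extremes of several members at once. In CA1 the array of rTg4510 mouse 6 was the lowest of 17 for 4 of the 8 member probe sets and below the median for 7, and that of rTg4510 mouse 4 was the highest for 5 and above the median for 7. In the DG the array of DN mouse 2 was the lowest for 4 and below the median for all 8. In CA3 the array of tTA mouse 4 was the lowest for 4, while that of DN mouse 5 was below the median for all 8 and that of DN mouse 1 above it for all 8. Probe sets of the same gene count separately here.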
